A study of Homo sapiens with 6 samples.

Results

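The rows described here are bright transcript clusters to which the array's annotation gives no gene symbol. A transcript cluster is a set of probes for 1 transcribed locus, and each is 1 row of the deposited table. Rows were selected on their level: a row was taken when the platform annotation used here listed no symbol for it and its mean over the 6 arrays was 8 or above on the log2 scale. This gave 6589 of the 98455 rows without a symbol and of the 135750 rows in all. The mean level chose the rows, so the levels are given as a description. The mean weighs both treatments equally, but it is not separate from the contrast for rows that pass it through 1 group alone. Bright and dim refer here to array signal, which also depends on each row's own probes, and not to transcript abundance. A row without a symbol is unnamed here, which does not mean that no gene lies there.

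RNA came from MHH-cALL4, an established line of B-cell precursor acute lymphoblastic leukaemia of the Philadelphia chromosome-like subtype. There were 3 arrays of cells given the DMSO vehicle and 3 arrays of cells given 1 µM ruxolitinib, each for 12 h in culture. MHH-cALL5 appears in the titles and source names of the 3 ruxolitinib arrays, but MHH-cALL4 in their cell line field, which was followed. If the titles were right, line and treatment could not be told apart. The labels do not tell separate cultures from repeat arrays of 1 culture, and p-values therefore cover the spread between these arrays, which may be technical.

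Cells of this subtype often depend on CRLF2, a cytokine receptor chain that signals through the JAK kinases. Active JAK kinases phosphorylate STAT proteins such as STAT5, which enter the nucleus and bind DNA at sites of the form TTCNNNGAA. Ruxolitinib blocks JAK1 and JAK2. Genome-wide arrays of this kind also carry many probe sets for non-coding transcripts, for the opposite strand of genes and for parts of transcripts that annotations give no gene name.

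The labels of the arrays were checked on known genes. CISH, a feedback inhibitor induced by STAT5, stood at 12.47, 12.61 and 12.10 with DMSO and at 5.99, 5.88 and 5.75 with ruxolitinib (log2 signal). Of 9 measured B-cell precursor markers none was below 11.75 on average over the arrays, DNTT being the brightest at 19.55. The 9 measured T-cell, myeloid and erythroid markers lay between 3.66 and 5.94, against a median of 4.54 over all rows. The medians of the 6 arrays over all rows were 4.51 to 4.59.

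DMSO replicate 1 and ruxolitinib replicate 3 stood apart on the high side in these rows. They were the 2 highest arrays in 1989 of the 6589 rows (30.2%), against 607 of the 9351 bright rows with a symbol (6.49%). The share was 11.9% over all rows and 12.9% over the unnamed rows below 8. The median deviation from a row's own mean was 0.15 in DMSO replicate 1 and 0.24 in ruxolitinib replicate 3 (log2). It was 0.02 and -0.22 in DMSO replicates 2 and 3, and -0.12 and -0.08 in ruxolitinib replicates 1 and 2. DMSO replicate 3 thus lay further from the row mean than DMSO replicate 1, on the low side. The first principal component held 60.7% of the variance of the bright unnamed rows, with loadings of 0.45 and 0.56 for the arrays that stood apart, 0.13 for DMSO replicate 2, and -0.49, -0.36 and -0.29 for the other three. Over all rows the loadings of these high arrays were 0.51 and 0.52, so the pattern was not particular to the bright unnamed rows. Each group thus held 1 of the high arrays. Calls are given with and without this pair of arrays below.

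**Figure D1:**
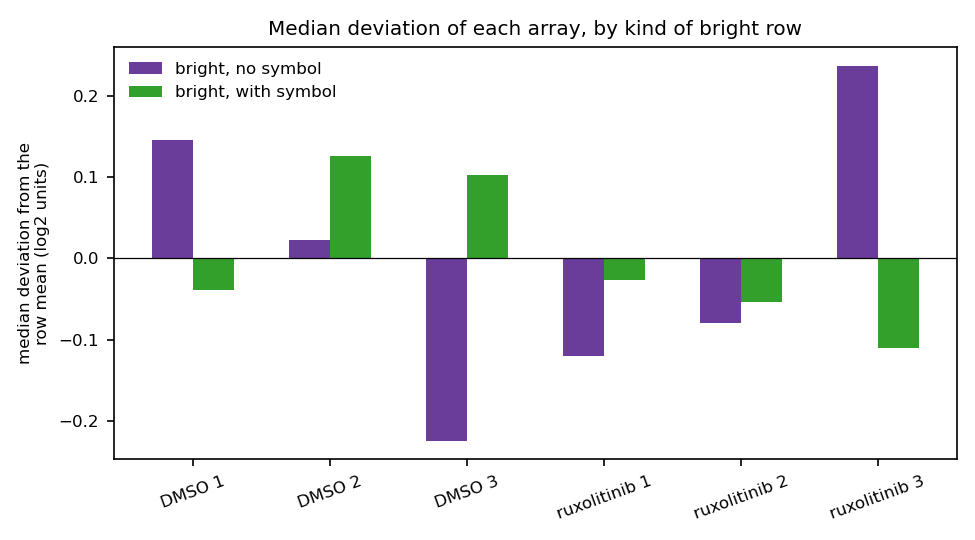
Median deviation of each array from the row mean, in log2 units, for bright rows without a symbol (purple) and with a symbol (green). Among the unnamed rows DMSO replicate 1 (0.15) and ruxolitinib replicate 3 (0.24) lie above 0 while DMSO replicate 3 (-0.22) lies below, and the bright rows with a symbol have another order.

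The files give no position or sequence for the unnamed rows themselves. Sequences are therefore shown for the genes with a symbol that stand next to called rows in row number, or that RefSeq places there, and that passed the same test, together with CISH for reference. These genes were TOMM20P2, SLFN12L, JCHAIN, CA6 and DIPK1C, of which 4 of 5 matched a RefSeq promoter window. Each is the RefSeq promoter window on GRCh38.p14, 250 bases before to 50 after the annotated start, written 5′ to 3′ on the gene's strand. Capitals mark each TTCNNNGAA, a pattern that reads the same on both strands, and the matches within CISH do not overlap.
CISH, chr3:50611725-50612024, minus strand: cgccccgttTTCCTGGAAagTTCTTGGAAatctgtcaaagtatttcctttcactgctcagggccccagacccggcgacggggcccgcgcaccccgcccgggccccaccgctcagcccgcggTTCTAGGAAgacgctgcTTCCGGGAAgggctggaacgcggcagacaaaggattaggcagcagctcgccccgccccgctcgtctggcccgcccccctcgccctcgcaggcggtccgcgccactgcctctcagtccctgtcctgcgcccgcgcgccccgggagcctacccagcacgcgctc
SLFN12L, chr17:35537629-35537928, minus strand: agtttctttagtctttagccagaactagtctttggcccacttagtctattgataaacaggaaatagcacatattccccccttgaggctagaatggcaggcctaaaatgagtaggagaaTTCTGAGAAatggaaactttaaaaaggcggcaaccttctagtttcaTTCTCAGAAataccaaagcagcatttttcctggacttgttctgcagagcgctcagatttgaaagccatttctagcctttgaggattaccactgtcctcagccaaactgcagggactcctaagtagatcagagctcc
JCHAIN, chr4:70666459-70666758, minus strand: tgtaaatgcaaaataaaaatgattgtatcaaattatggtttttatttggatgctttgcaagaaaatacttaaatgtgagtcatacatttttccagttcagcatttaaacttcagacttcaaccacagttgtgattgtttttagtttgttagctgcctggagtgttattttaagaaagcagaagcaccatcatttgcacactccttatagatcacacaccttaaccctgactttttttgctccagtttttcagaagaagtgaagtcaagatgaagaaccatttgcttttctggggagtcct
CA6, chr1:8945618-8945917, plus strand: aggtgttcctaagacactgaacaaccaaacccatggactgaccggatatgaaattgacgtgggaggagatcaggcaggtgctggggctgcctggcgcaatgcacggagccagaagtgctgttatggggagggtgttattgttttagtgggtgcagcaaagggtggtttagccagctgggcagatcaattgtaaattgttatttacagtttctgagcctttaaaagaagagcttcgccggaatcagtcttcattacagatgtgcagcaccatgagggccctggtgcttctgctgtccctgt
DIPK1C, chr18:74457259-74457558, minus strand: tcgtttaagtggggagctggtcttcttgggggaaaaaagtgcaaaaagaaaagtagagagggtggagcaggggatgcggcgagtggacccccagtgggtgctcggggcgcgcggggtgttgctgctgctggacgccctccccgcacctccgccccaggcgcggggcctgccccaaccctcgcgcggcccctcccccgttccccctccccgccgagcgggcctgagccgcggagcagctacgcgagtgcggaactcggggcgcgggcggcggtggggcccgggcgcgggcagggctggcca

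The CISH window held 4 matches, beginning 241, 230, 129 and 112 bases before the start. The SLFN12L window held 2, beginning 132 and 86 bases before the start. Windows with at least 1 match made up 7.66% of 35116 RefSeq promoter windows of this length, and windows with 2 or more made up 0.456%. The JCHAIN, CA6 and DIPK1C windows held these letters nowhere. A match is a description of the letters and not a measured binding site.

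Ruxolitinib changed few of the bright unnamed rows, 11 of 6589 (0.167%) against 0.0766% of all rows. At this threshold, an adjusted p under 0.05 over all 135750 rows (limma), 9 were lower with ruxolitinib (0.137%), against a background of 0.0722% of all rows. Another 2 were higher (0.0304%), against 0.00442% of all rows. All 11 had groups that did not overlap, and each differed by more than 2-fold. In 7 of the 11 the mean of 1 group was below 8, with ruxolitinib in 6 lower rows and with DMSO in 1 higher row. Those 7 reached the level of 8 only through the group where they were high, so level and call are not separate for them, and the count of 11 supports nothing about bright unnamed rows as a class. The 4 rows at 8 or above in both groups were TC0100012782.hg.1, TC0200010284.hg.1, TC0700012626.hg.1 and TC1700011829.hg.1. Of the 9351 bright rows with a symbol, 44 were lower and 3 were higher (0.471% and 0.0321%).

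Without a test, the median log2 change was 0.02 over the bright unnamed rows, 0.02 over all rows and -0.12 over the bright rows with a symbol. The middle 90% of the unnamed rows lay between -0.54 and 0.47. Groups that did not overlap were found in 215 unnamed rows that were lower (3.26%, background 5.06%) and in 314 that were higher (4.77%, background 6.11%), shares below those of all rows. A change of at least 2-fold was seen in 52 rows that were lower (0.789%, background 0.455%) and 20 that were higher (0.304%, background 0.107%). At an unadjusted p under 0.05 there were 196 lower and 186 higher rows (2.97% and 2.82%), near the 3.08% and 2.79% of all rows. That split depended on the scaling, with 150 lower and 362 higher after quantile normalization and 158 lower and 312 higher after cyclic loess. The largest log2 change upward, 1.82 ± 0.33 (SE) in TC0400007470.hg.1 on chromosome 4, a row outside the rule for named rows, did not pass (adjusted p = 0.178, limma).

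**Figure D2:**
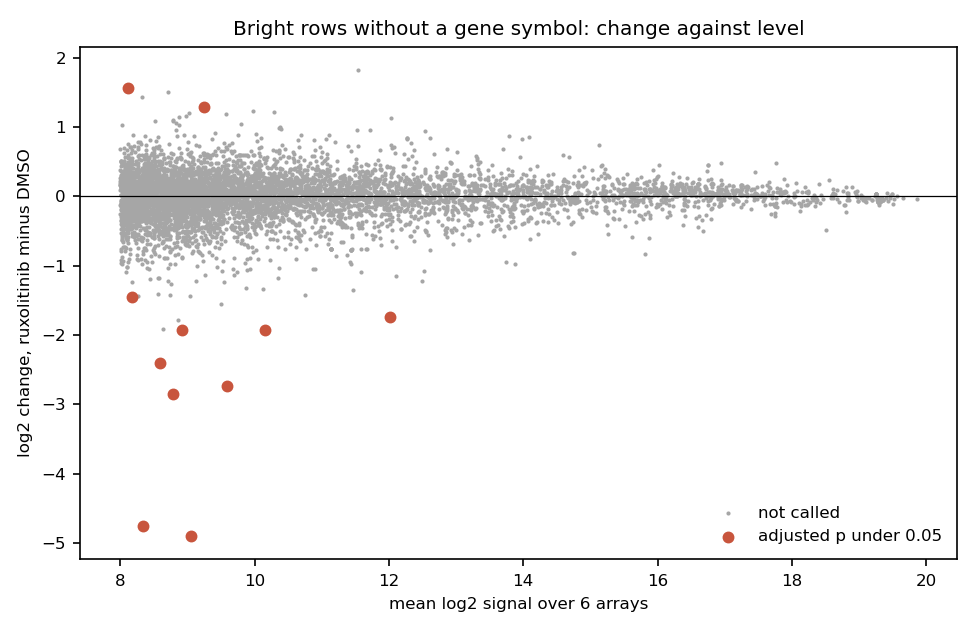
Log2 change with ruxolitinib (y axis) against mean log2 signal over 6 arrays (x axis) for the 6589 bright rows without a symbol, with the 11 called rows in red. The called rows reach from -4.89 to 1.56, and the other rows gather around 0.

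The called rows lay on chromosomes 1, 2, 4, 7, 12, 13, 17 and 18, as read from the characters after TC in the row id. To describe their surroundings, the order of row numbers was compared with RefSeq positions. Of 34310 pairs of successive rows with a single symbol and a RefSeq position on the same chromosome, 98.6% ascended. Around 10 of the 11 called rows, all 9 pairs formed by the 5 positioned rows on either side ascended, and around TC0100012782.hg.1 it was 8 of 9. Row numbers therefore place a row between named neighbours, and they give it no name.

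**Figure D3:**
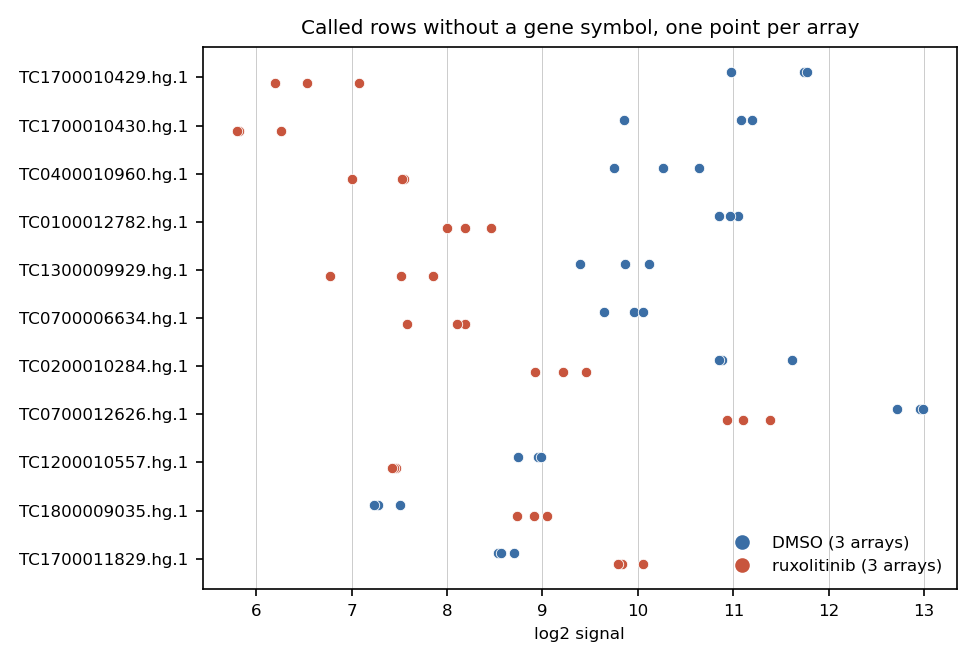
Log2 signal (x axis) of the 11 called rows on each of the 3 DMSO arrays (blue) and the 3 ruxolitinib arrays (red). In each row the groups are apart, with DMSO to the right in 9 rows and to the left in TC1800009035.hg.1 and TC1700011829.hg.1.

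The deepest falls stood together on chromosome 17. TC1700010429.hg.1 was at 11.74, 11.77 and 10.98 with DMSO and at 7.07, 6.19 and 6.53 with ruxolitinib. TC1700010430.hg.1 was at 11.20, 11.08 and 9.86 with DMSO and at 6.26, 5.82 and 5.80 with ruxolitinib. DMSO replicate 3 was the lowest DMSO array in both rows and still lay above every ruxolitinib array. The first row fell by 4.89 ± 0.29 on the log2 scale (SE, 29.7-fold, adjusted p = 0.000899, limma). The second fell by 4.75 ± 0.34 (26.9-fold, adjusted p = 0.00302, limma).

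These rows are numbered between SLFN13 and TOMM20P2. The Schlafen genes, to which SLFN13 belongs, encode proteins of RNA metabolism and of growth control in lymphoid cells. RefSeq places SLFN12L, another Schlafen gene, between SLFN13 and SLFN14, with the TOMM20P2 pseudogene inside its span. The TOMM20P2 row, numbered directly after TC1700010430.hg.1, went from 11.94 ± 0.15 to 6.90 ± 0.33 (SD, n = 3 each), and fell by 5.03 on the log2 scale. The row that the annotation names SLFN12L carries a number far from these and fell by 4.21 ± 0.25 (SE, adjusted p = 0.000899, limma).

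The other Schlafen rows on either side did not pass the test. SLFN13, numbered before them, was at 12.79, 13.45 and 13.36 with DMSO and at 13.89, 13.99 and 14.11 with ruxolitinib, and did not pass (log2 change 0.80 ± 0.21, adjusted p = 0.484, limma). SLFN14, numbered after them, was dim in both groups, at 4.03 and 4.16. Between SLFN13 and TC1700010429.hg.1, the unnamed row TC1700010427.hg.1 fell by 1.88 ± 0.15 (SE, adjusted p = 0.00517, limma). Its mean of 7.80 put it just below the level that makes a row bright. TC1700012388.hg.1, numbered directly after SLFN12L, also stayed below that level with a mean of 7.58, and fell by 4.57 ± 0.25 (adjusted p = 0.000726, limma).

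A further fall was next to JCHAIN on chromosome 4. JCHAIN encodes the joining chain that links the subunits of secreted IgM and IgA. TC0400010960.hg.1 was at 10.64, 10.26 and 9.75 with DMSO and at 7.01, 7.55 and 7.53 with ruxolitinib, 7.23-fold lower (log2 change -2.85 ± 0.26, adjusted p = 0.00918, limma). The next row in number is JCHAIN itself, at 18.09, 18.57 and 18.37 with DMSO and at 15.42, 16.14 and 15.55 with ruxolitinib. JCHAIN fell by 2.64 ± 0.23 (adjusted p = 0.00781, limma). On the far side TC0400010959.hg.1, a dimmer unnamed row, showed -1.69 ± 0.26 and did not pass (adjusted p = 0.0872, limma). The next gene row beyond JCHAIN, RNU6-784P, showed -0.14.

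**Figure D4:**
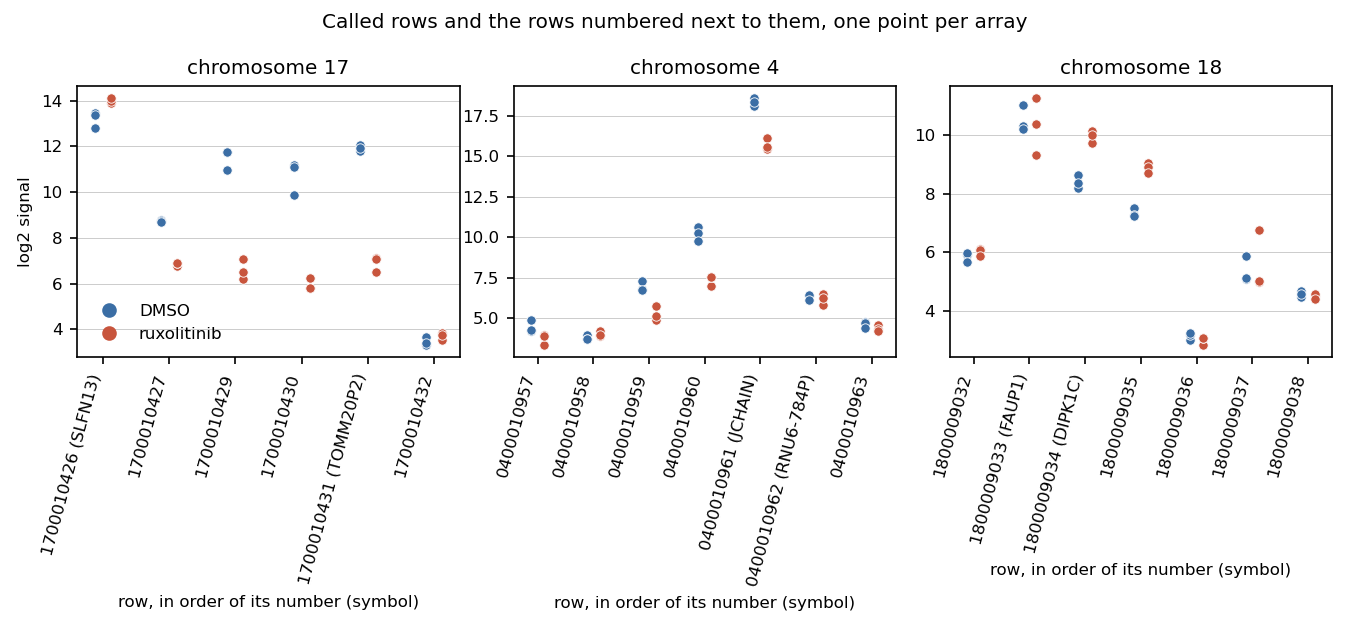
Log2 signal (y axis) on each DMSO array (blue) and ruxolitinib array (red) for called rows and up to 3 row numbers on either side of 1 of them, on chromosomes 17, 4 and 18, in order of row number with the symbol where there is one. Called rows and their called neighbours TOMM20P2, JCHAIN and DIPK1C move the same way, while SLFN13, RNU6-784P and FAUP1 did not pass the test. Each panel has its own y range.

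On chromosome 1, TC0100012782.hg.1 had tight replicates. It stood at 11.05, 10.96 and 10.85 with DMSO and at 8.46, 8.19 and 8.001 with ruxolitinib, and fell by 2.74 ± 0.18 (6.66-fold, adjusted p = 0.0017, limma). The nearest protein-coding rows on either side in number are ENO1, which encodes the glycolytic enzyme enolase, and SLC2A7, a sugar transporter gene. ENO1 showed -0.70 ± 0.18 and SLC2A7 0.37 ± 0.19, and neither passed. RefSeq lists 3 genes between the positioned rows on either side (RNU6-304P and RN7SL451P), among them CA6, which encodes a secreted carbonic anhydrase. The CA6 row stands elsewhere in the numbering. CA6 is annotated on the plus strand, and the neighbours of TC0100012782.hg.1 with a known strand are on the minus strand. CA6 went from 8.64 ± 0.12 to 5.36 ± 0.79 (SD, n = 3 each; log2 change -3.28 ± 0.35, adjusted p = 0.0211, limma).

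TC1300009929.hg.1 on chromosome 13 was at 9.86, 10.12 and 9.39 with DMSO and at 7.52, 6.78 and 7.85 with ruxolitinib. It fell by 2.41 ± 0.30 (5.31-fold, adjusted p = 0.0365, limma). The next row after it is LINC00454, at 4.12 and 4.08 in the groups. The nearest positioned gene row before it, 5 numbers away, is GAS6, which encodes a ligand of the TAM receptor kinases. GAS6 showed -1.06 ± 0.27 and did not pass (adjusted p = 0.457, limma). The unnamed row directly before it, TC1300009928.hg.1, showed -1.75 ± 0.28 and did not pass either (adjusted p = 0.112, limma).

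Chromosome 7 held a pair of called rows far apart in number. TC0700012626.hg.1 was the brightest called row, at 12.95, 12.98 and 12.72 with DMSO and at 11.38, 10.94 and 11.10 with ruxolitinib, and fell by 1.75 ± 0.18 (3.35-fold, adjusted p = 0.0202, limma). The nearest positioned gene rows on either side are KLF14, 17 numbers before it, and RNU6-1010P, 3 after it, both dim. RefSeq places 9 genes between them, including LINC-PINT, a long non-coding RNA, and the microRNA genes MIR29A and MIR29B1. The LINC-PINT row showed -1.25 ± 0.32 and did not pass (adjusted p = 0.459, limma). The row before the called one, TC0700012625.hg.1, is also bright and unnamed and stood at -0.98 ± 0.19 (adjusted p = 0.198, limma). TC0700012624.hg.1 and TC0700012628.hg.1 stood at -1.35 and -1.19 without passing.

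TC0700006634.hg.1 was at 9.64, 9.96 and 10.05 with DMSO and at 8.19, 7.58 and 8.10 with ruxolitinib. It fell by 1.93 ± 0.22 (3.80-fold, adjusted p = 0.0255, limma). The nearest protein-coding rows on either side with 1 symbol, OCM and ANKRD61, were dim, with group means from 4.09 to 4.90, and showed 0.29 ± 0.23 and 0.24 ± 0.21. The row directly before TC0700006634.hg.1 carries several symbols and showed -0.32 ± 0.27. RefSeq lists 7 genes between OCM and ANKRD61, among them PMS2 and EIF2AK1, whose rows stand elsewhere in the numbering. Both were bright, with group means of 11.89 and 11.65 for PMS2 and of 13.89 and 13.74 for EIF2AK1. They showed -0.24 ± 0.24 and -0.15 ± 0.27 and did not pass. The row of RN7SL556P, a pseudogene also placed there, showed 0.36 ± 0.20 without passing.

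TC0200010284.hg.1 on chromosome 2 was at 10.88, 11.62 and 10.85 with DMSO and at 9.45, 9.22 and 8.92 with ruxolitinib. It fell by 1.92 ± 0.25 (3.79-fold) and came closest to the threshold among the called rows, with an adjusted p of 0.0467 (limma). It stands between the pseudogenes HMGB1P27 and RNU6-1045P, which showed 0.23 and -0.25. The unnamed rows directly before and after it were dim, with means of 2.97 and 4.56.

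TC1200010557.hg.1 on chromosome 12 fell the least of the lower rows, from 8.95, 8.75 and 8.99 to 7.46, 7.44 and 7.43. The ruxolitinib arrays lay within an SD of 0.02, and the log2 change was -1.45 ± 0.16 (2.74-fold, adjusted p = 0.025, limma). It is numbered directly after HDAC7, a class IIa histone deacetylase gene, which showed -0.84 ± 0.25 and did not pass (adjusted p = 0.622, limma). VDR, the vitamin D receptor gene numbered 2 rows later, showed 0.06 ± 0.22.

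Of the higher rows, TC1800009035.hg.1 on chromosome 18 is numbered directly after DIPK1C, a gene of the divergent protein kinase family. The row was at 7.51, 7.28 and 7.24 with DMSO and at 9.05, 8.91 and 8.73 with ruxolitinib, 2.94-fold higher (log2 change 1.56 ± 0.17, adjusted p = 0.0255, limma). DIPK1C was at 8.19, 8.64 and 8.36 with DMSO and at 9.75, 10.15 and 10.02 with ruxolitinib, and rose by 1.58 ± 0.19 (adjusted p = 0.0363, limma). The rows on the other side of TC1800009035.hg.1 were dim, with changes of -0.15 and 0.23.

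TC1700011829.hg.1 on chromosome 17 rose from 8.54, 8.57 and 8.70 to 9.83, 10.05 and 9.79 (log2 change 1.29 ± 0.16, 2.44-fold, adjusted p = 0.0401, limma). No row numbered within 3 of it has a symbol. The nearest rows with exactly 1 symbol were JMJD6, 11 numbers before it, and RNU4-47P, 15 numbers after it. JMJD6 showed -0.07 ± 0.23 and RNU4-47P 0.11 ± 0.25. RefSeq places 15 genes between these, including SRSF2, MFSD11, SNHG20 and SEC14L1. MFSD11 is annotated on the plus strand, and the neighbours of TC1700011829.hg.1 with a known strand are on the minus strand. The MFSD11 row showed 0.34 ± 0.16 and did not pass (adjusted p = 0.880, limma). METTL23 and MGAT5B, also placed there on the plus strand, showed 0.03 ± 0.24 and 0.27 ± 0.25 without passing. The unnamed row directly before TC1700011829.hg.1, TC1700011828.hg.1, was dimmer and showed 1.22 ± 0.18 without passing (adjusted p = 0.0752, limma).

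The next 3 rows with the lowest p among those that were higher did not pass. TC1100012977.hg.1 on chromosome 11 was at 9.49, 9.30 and 9.30 with DMSO and at 10.52, 10.43 and 10.81 with ruxolitinib (log2 change 1.22 ± 0.17, adjusted p = 0.0722, limma). It is numbered directly after NUCB2, which encodes the calcium-binding protein nucleobindin 2 and showed 0.80 ± 0.19. TC0100013289.hg.1 was at 8.31, 8.66 and 8.29 and then at 9.68, 9.64 and 9.55 (log2 change 1.20 ± 0.17, adjusted p = 0.075, limma). It stands 2 numbers after E2F2, a cell cycle transcription factor that rose by 1.36 ± 0.15, from a mean of 11.19 to 12.54 (adjusted p = 0.0255, limma). TC1300006802.hg.1 on chromosome 13 had the smallest change of these, 0.88 ± 0.16 (adjusted p = 0.161, limma).

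Most bright unnamed rows beside a changed gene did not pass the test. Of the 6589 rows, 10 are numbered directly beside a row with a symbol that passed the test. The 3 of the 10 that passed were those beside TOMM20P2, JCHAIN and DIPK1C. All 3 had 1 group mean below 8 (5.96 and 7.36 with ruxolitinib, 7.34 with DMSO), so level and call are not separate for them. The share called was 0.0766% over all rows, and it was not computed for all rows beside a called one. The 7 that did not pass stood beside CA6, RALB, CTNS, PDGFRB, RNF141, ENTPD6 and SIRPA, all of which fell. Changes of those 7 unnamed rows lay between -0.40 and 0.50. The one beside RALB, which encodes a small GTPase, showed 0.12, while RALB fell by 2.39. Across 3545 pairs of a bright unnamed row and a directly adjacent row with a symbol, Pearson's r between the changes was 0.28, and r was 0.38 over the 1537 pairs in which both rows were bright. The points share the same 6 arrays, so noise of an array enters both sides, and the rows are not independent.

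Calls rested on all 6 arrays in most cases. TC1700010429.hg.1, TC1700010430.hg.1 and TC0100012782.hg.1 stayed below the threshold in each of 6 fits without 1 array (highest adjusted p = 0.0391, limma). TC0400010960.hg.1 did so in 3 of the 6 and TC1300009929.hg.1 in 1. The other 6 rows did so in none, with adjusted p-values reaching 0.294 (limma). Over all rows these fits called 18 to 50 rows, against 104 with all 6 arrays. Without DMSO replicate 1 and ruxolitinib replicate 3, the same 3 bright unnamed rows passed, among 27 of all rows. Their log2 changes were -4.74, -4.43 and -2.58. TC0400010960.hg.1 then had an adjusted p of 0.0614, TC1800009035.hg.1 one of 0.0958 and the rest 0.103 to 0.252 (limma), with each change in its former direction. Of their named neighbours, TOMM20P2 and SLFN12L passed without this pair of arrays, while JCHAIN (adjusted p = 0.0627) and DIPK1C (adjusted p = 0.252) did not (limma). The part that the shared deviation of this pair plays in the calls was not tested.

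The level at which rows count as bright decides how many calls are described. Just inside the limit, TC1100012690.hg.1, TC0800007319.hg.1 and TC0600008474.hg.1 had means between 8.0001 and 8.0013. Just outside, TC0100016629.hg.1, TC1600010197.hg.1 and TC1900011625.hg.1 had means between 7.9994 and 7.9998. Among the 91866 dimmer rows without a symbol 13 passed, 12 of them lower. Besides the pair described above beside SLFN13 and SLFN12L, these include TC1700007592.hg.1, numbered directly after a row of the pseudogene E2F3P1. RefSeq places E2F3P1 between SLFN13 and TOMM20P2. The E2F3P1 row directly before TC1700007592.hg.1 was bright and showed 0.23 ± 0.24, from a mean of 12.38 to 12.60 (adjusted p = 0.973, limma). Another E2F3P1 row, TC1700007590.hg.1, showed -1.27 ± 0.33 and did not pass (adjusted p = 0.482, limma). TC1700007592.hg.1 had a mean of 4.88 and fell by 2.25 ± 0.28 (adjusted p = 0.0365, limma), also named after its value was seen. Another is TC1200008473.hg.1, numbered directly before SOCS2, a feedback inhibitor of cytokine signalling that fell by 1.98 ± 0.17. TC1200008473.hg.1 had a mean of 7.59 and fell by 2.11 ± 0.26 (adjusted p = 0.0363, limma), and it is named after its value was seen. The dim row that was higher, TC0900009334.hg.1 on chromosome 9, went from 6.69 ± 0.17 to 8.79 ± 0.46 (SD, n = 3 each).

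In level, the unnamed rows were the less often bright. A mean of 8 or above was reached by 6.69% of rows without a symbol and by 25.1% of the 37295 rows with one. Of the bright unnamed rows, 2286 lay between 8 and 9, 1341 between 9 and 10, 1432 between 10 and 12, and 115 at 18 or above. The median SD between replicates was 0.375 between 8 and 9 and 0.382 between 9 and 10, and from there it was lower in each brighter bin, down to 0.09 at 18 or above. Over all bright unnamed rows it was 0.34, against 0.27 for the bright rows with a symbol. Of the 11 calls, 6 lay between 8 and 9, a bin that held 34.7% of the bright unnamed rows. None was at 14 or above, in bins of 395, 347 and 115 rows, against 0.0766% of all rows called. The mean that sets the bin takes in the change itself, so no link between level and call is read from these counts.

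The share of unnamed rows that were bright ranged from 4.79% on chromosome 8 to 10.4% on chromosome 19 among the autosomes, with 8.97% on chromosome 16 and 8.95% on chromosome 17. Rows on unplaced or alternative contigs reached 34.9% and rows without any mapped position 13.8%. None of the 66 and 49 bright rows of those kinds passed the test (limma), against 0.0766% of all rows. An unadjusted p under 0.05 was reached by 6 of the 115, against 3.08% (lower) and 2.79% (higher) of all rows. With so few rows, nothing about these kinds is read from either count. All 11 calls therefore carry a chromosome in their id.

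**Figure D5:**
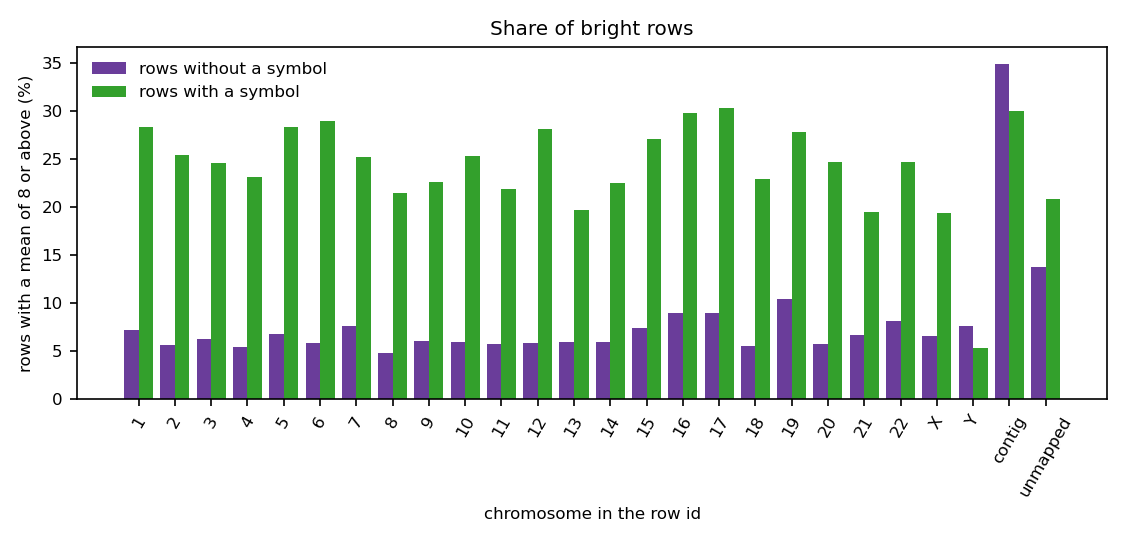
Percentage of rows with a mean log2 signal of 8 or above (y axis) by the chromosome in the row id (x axis), without a symbol (purple) and with a symbol (green), the mitochondrial chromosome left out. Unnamed rows lie between 4.79% and 10.4% on the autosomes and reach 34.9% on contigs.

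The mitochondrial chromosome was the exception, with 11 of its 12 unnamed rows bright. Their means lay between 10.04 and 19.07. Mitochondrial DNA is transcribed from both strands, and ND6 is the protein gene encoded on the light strand. Of the 11 rows, 9 are numbered after CYTB and before ND6. TC0M00006445.hg.1, the brightest, was at 19.19, 18.93 and 19.14 with DMSO and at 19.02, 19.10 and 19.08 with ruxolitinib. Changes of the 11 lay between -0.38 and 0.40, and none passed (lowest unadjusted p = 0.0753, limma, so 0 under 0.05). With 11 rows, and 0.0766% of all rows called, nothing is read from that absence. In 6 of the 11, DMSO replicate 1 and ruxolitinib replicate 3 were the 2 highest arrays.

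The brightest unnamed rows of all were close to the highest value in the table, 19.92. Whether a change could still show at that signal was not tested, so no absence of change is read from them. TC1300009757.hg.1 was at 19.82, 19.92 and 19.91 with DMSO and at 19.88, 19.84 and 19.82 with ruxolitinib, the highest mean in the table. TC1200010436.hg.1 had a mean of 19.65, TC1200010664.hg.1 of 19.56, TC0Y00007055.hg.1 of 19.52, TC0100012063.hg.1 of 19.50 and TC0800011397.hg.1 of 19.49. Their log2 changes lay between -0.11 and 0.03, each with an SE of 0.15 or 0.16.

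Some of the rows are not separate measurements. On all 6 arrays 200 of the 6589 rows had exactly the values of another row, so that the 6589 rows held 6476 distinct sets of values. The largest such set joined 8 rows on chromosomes 6, 12, 13, 16, 19, 20 and 22, with a mean of 19.26. Another set of 5, with a mean of 16.61, joined 3 rows on chromosome 21 with 2 on contigs. In 11 cases the twin carries a symbol, and 9 of those 11 rows have no mapped position. Twins include rows of U6 small nuclear RNA genes and pseudogenes, of the box C/D small nucleolar RNA SNORD24 and of the 5.8S ribosomal pseudogene RNA5-8SP2. The row with the values of SNORD24, TSUnmapped00000845.hg.1, had a mean of 14.20 and a log2 change of -0.37 ± 0.32. None of the 11 called rows shares its values with another row.

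The most variable rows followed the arrays that stood apart. TC0200012623.hg.1 was at 11.14, 9.09 and 7.40 with DMSO and at 7.49, 8.09 and 12.40 with ruxolitinib. TC0300013662.hg.1 was at 10.51, 8.32 and 6.73 and then at 7.14, 7.56 and 11.72. TC1700010954.hg.1 was at 13.93, 11.65 and 11.35 and then at 10.39, 11.32 and 15.24, and TSUnmapped00000413.hg.1 at 10.80, 8.63 and 8.37 and then at 7.07, 8.20 and 11.82. In these 4 rows DMSO replicate 1 and ruxolitinib replicate 3 were the highest of their groups, and the SD within groups was 1.99 to 2.31. Their log2 changes, -0.24 to 0.29, came with SEs of 1.11 to 1.28, so a log2 change of 1 would lie below their SE.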

How the data were processed

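Total RNA of a human leukaemia cell line was labelled as biotinylated cRNA for 6 Affymetrix arrays, per the labels' protocols. Per the submitters' processing notes, the tools were RMA, Transcriptome Analysis Console and Affymetrix Expression Console, with no version or order. The values deposited by the authors are log2 signals per transcript cluster, a unit read from their range of 1.99 to 19.92. The genome build of the array is not stated here, nor is any filter. Arrays have no read depth, so their number limits the precision.

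Ruxolitinib was compared with DMSO over all 135750 rows in limma 3.58.1 (R 4.3.3), by lmFit and eBayes without covariates. Tests were two-sided, with Benjamini-Hochberg adjustment over all rows and a threshold of 0.05. No p was adjusted over the described rows alone. The fit was tested on simulated data. Of the rows, 36176 had 1 symbol, 1119 several and 98455 none. Row numbers were set against RefSeq positions (GRCh38.p14) through Entrez identifiers or symbols, and row coordinates are not given because the build is not stated.

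Named rows were the called rows with groups that did not overlap (at most 15 in each direction, topped up to 5), the 6 brightest, the 3 on each side of the level of 8, the 4 most variable and flanking symbol rows. Rows numbered within 3 of a called row, RefSeq genes between flanking rows and rows below 8 were added after their values were seen. The rows and lists were chosen with earlier results of these data known. Alternatives covered the spread model, scaling, array weights, rows tested, thresholds, the level of brightness, the replicate number and arrays left out. Replicate numbers were not treated as pairs.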

Additional observations from a re-analysis of the deposited data

How the results depend on the processing

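Of the 9 lower and 2 higher rows, 8 and 0 were called with a trended, robust spread, 0 and 0 without moderation of the spread (lmFit alone, 0 rows in the whole table, where an unadjusted p under 0.05 was reached by 128 lower rows and 153 higher ones), and 4 and 0 at an adjusted p threshold of 0.01. Testing only rows above the median gave 9 and 1, and testing only rows with a mean of 8 or above gave 13 and 4 (limma). With bright rows taken from a mean of 9 the counts were 4 and 1, for fewer rows were counted. Over the whole table the main fit called 104 of 135750 rows, and the fit with a trended, robust spread called 90. Leaving out each array in turn gave 3 to 5 lower rows and 0 higher rows, with 18 to 50 rows called over the whole table. Leaving out both arrays that stood apart gave 3 and 0, with 27 called over the whole table. Fewer arrays were fitted there. Otherwise the cause was not tested. Quantile normalization, median centring, cyclic loess, array weights, a fold threshold of 2, a brightness level of 7 and rows with a chromosome only kept both counts within 1.5 times. Where no higher row was called, 112 to 245 were higher at an unadjusted p under 0.05 (limma). In the main fit the share was 2.82%, near the 2.79% of all rows. At that unadjusted threshold, shares over all rows were not counted for the other fits. Nothing is therefore read from these counts, nor from the 128 and 153 bright unnamed rows without moderation. The median change ran from -0.08 to 0.11 over the alternatives run for it. It moved from 0.02 by less than 0.19, the within-group SD of the arrays' median deviations over the bright unnamed rows, and its sign changed under some. Of 368 values of single named rows and genes under the alternatives, 242 kept their side of the threshold, 122 lost the call and 4 gained it, with 0 changes of direction. With the replicate number as a block 2 rows were lower and 0 higher, and 6 rows were called over the whole table. The numbers are not shown to pair the arrays, since same-numbered arrays' deviations from their group means correlated at -0.22, -0.08 and -0.42 over all rows.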
